A study of Homo sapiens with 12 samples.

Results

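The comparison described here is that of A549 cells given TGF-β1 together with sodium acetate against A549 cells given TGF-β1 alone. All 4 libraries of each group were taken from the deposited count table that holds both, so 8 of the 12 libraries of the study entered the tests. That table lists 24745 genes, of which 22336 had enough counts to be tested. A549 is an established human lung adenocarcinoma line with alveolar epithelial features. Both groups received 10 ng/mL TGF-β1, one of them with 40 mM sodium acetate as well, for 2 days, in Ham's F-12K medium with fetal bovine serum. The 4 control libraries had neither agent and serve only to give levels. No library used here had acetate without TGF-β1 or another sodium salt, so acetate, the added sodium and the raised osmolarity cannot be told apart. No sample label names the count columns: a column's group rests on the names of the tables that hold it, and libraries keep their column codes, S15 to S18 for TGF-β1 and S22 to S25 for TGF-β1 with acetate.

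TGF-β1 binds receptor kinases that pass the signal to SMAD proteins, and in epithelial cells it drives the loss of cell junctions and the gain of mesenchymal genes. Acetate crosses the membrane through monocarboxylate transporters and is joined to coenzyme A by the ACSS enzymes. The acetyl-CoA so made feeds the synthesis of fatty acids and sterols and the tricarboxylic acid cycle, and it donates the acetyl groups placed on histones.

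The libraries held between 34698057 and 53938444 counts, at which 3 counts in a library equal 0.0556 to 0.0865 CPM (counts scaled to a common library total). This floor covers counting error only. The first principal component of the 8 libraries carried 76.35% of the variance and separated the groups. Levels are CPM scaled by TMM factors, which were 0.945 to 0.975 with TGF-β1 and 1.03 to 1.06 with acetate. Changes are log2 fold changes of acetate with TGF-β1 over TGF-β1 alone, and every adjusted p is that of edgeR's quasi-likelihood test over all 22336 genes, two-sided. The labels do not say that replicates were separate cultures, so these p-values measure the spread between libraries, which may be technical. In RNA of whole cultures, fewer cells of a kind and less RNA per cell cannot be told apart. Of 13 markers of the A549 line, 12 were in the table, with a summed level of 19634 to 20534 CPM with TGF-β1 and 14534 to 15703 CPM with acetate; 11 of the 12 rose and 1, ALDH1A1, an abundant dehydrogenase, fell. Of 27 markers of blood, endothelial, muscle and nerve support cells, 12 were in the table, and their sum was 41.6 to 44.6 CPM with TGF-β1 and 67.0 to 68.6 CPM with acetate. PTPRC, CD3E, PECAM1 and the haemoglobin genes were not in the table. The part of such cells in the results was not tested.

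Most tested genes were called, and most of the calls were small. The test called 14229 of 22336 genes (63.7%), 7437 higher (33.3%) and 6792 lower (30.4%), but 58.0% of the calls were under 1.5-fold and the median size of a called change was 0.496 on the log2 scale. The large changes were mostly rises. At least 2-fold, 2403 genes were higher (10.8% of those tested) and 462 lower (2.07%), and at least 4-fold 669 were higher and 45 lower. In 57.4% of tested genes the 4 libraries of one group all lay on the same side of the 4 of the other, 30.0% higher and 27.4% lower with acetate. The balance of the smaller changes depended on scaling: higher genes were 52.3% of the calls with TMM factors and 67.1% with library totals alone, which moved the median change of all genes from 0.026 to 0.157. Directions are given relative to the TMM scaling. For a list of genes the shares over all tested genes are 33.3% higher and 30.4% lower. The shares also differ with level, and the lists were not matched for it. Among protein-coding genes in 5 equal groups by mean level, 53.2% were called higher and 8.93% lower in the lowest group. In the highest group 27.8% were called higher and 52.9% lower, so lists of abundant or weak genes are to be read against these.

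**Figure D1:**
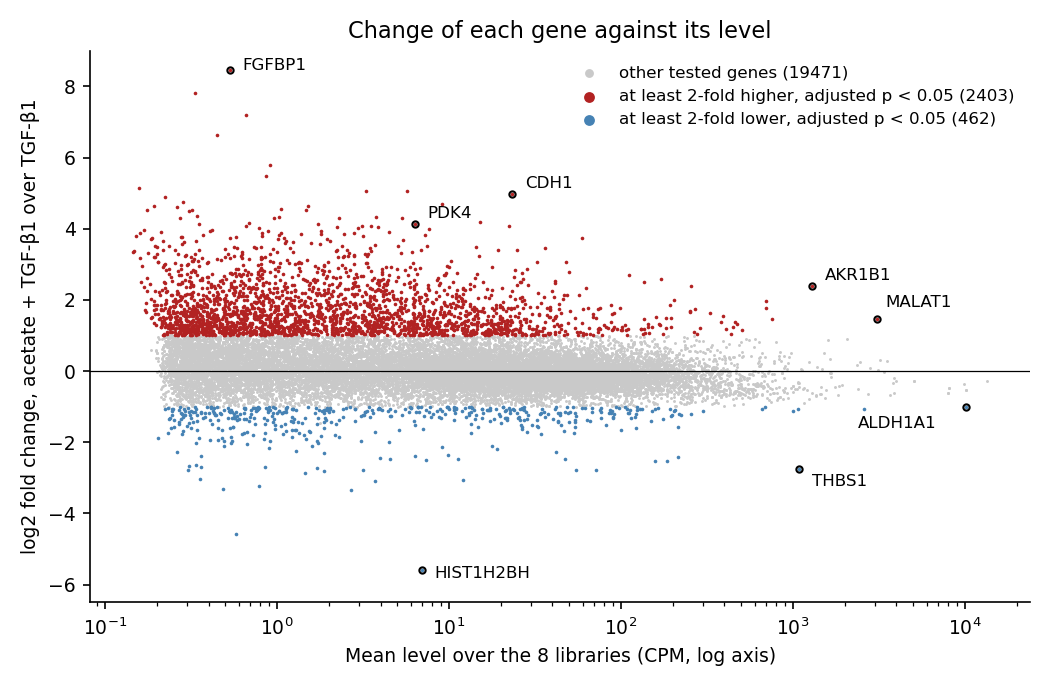
Log2 fold change with acetate (vertical axis) against mean level over the 8 libraries in CPM (horizontal log axis), 1 point per tested gene; red and blue points changed at least 2-fold with an adjusted p below 0.05. The red points (2403) outnumber the blue (462) and crowd the low levels, and the fitted value of FGFBP1, with no count in any TGF-β1 library, depends on the prior count.

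The largest changes among protein-coding genes at or above the median level included a metabolic enzyme and a cadherin that rose and a growth factor binding protein and a receptor that fell. CKB, the brain form of creatine kinase (chr14:103519659-103523111, minus strand), was at 9.74, 10.4, 10.6 and 10.1 CPM in S15 to S18 and at 87.5, 79.3, 101 and 76.8 CPM in S22 to S25 (log2 fold change 3.08 ± 0.08 (SE), adjusted p = 1.1e-13). CDH17, a cadherin of intestinal epithelium, went from 1.84, 2.09, 2.52 and 2.18 CPM to 18.01, 18.8, 18.4 and 18.7 CPM (log2 fold change 3.09 ± 0.08 (SE), adjusted p = 1.3e-13). In both, the lowest acetate library was several times the highest TGF-β1 library. Among the falls, IGFBP3, which binds insulin-like growth factors (chr7:45912245-45921874, minus strand), went from 346, 374, 362 and 371 CPM to 68.5, 66.2, 71.7 and 68.1 CPM (log2 fold change -2.40 ± 0.04 (SE), adjusted p = 1.6e-15). RET, a receptor tyrosine kinase, went from 69.9, 70.2, 68.5 and 67.7 CPM to 15.3, 12.8, 13.6 and 15.9 CPM (log2 fold change -2.26 ± 0.06 (SE), adjusted p = 7.0e-14), and GDF6, a ligand of the BMP family, fell by 2.35 ± 0.08. Their acetate libraries all lay far below their TGF-β1 libraries. Among the most abundant genes, the cytoskeletal AHNAK2 and AHNAK rose by 1.76 ± 0.06 and 1.33 ± 0.09, F2RL1, the protease-activated receptor PAR2, rose by 1.18 ± 0.04, and NAP1L1, a histone chaperone, fell by 1.07 ± 0.03.

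The rises were concentrated among weakly expressed genes. The protein-coding genes were divided by mean level into 5 groups of equal size. In the lowest group (0.146 to 3.87 CPM), 33.7% were at least 2-fold higher and 3.09% at least 2-fold lower. The share of 2-fold rises was 14.7%, 5.81% and 2.38% in the next groups and 2.14% in the highest, where 1.77% were at least 2-fold lower. The median change went the same way, from 0.576 in the lowest group to -0.118 in the highest. Level is the mean over both groups. Genes near 0 with TGF-β1 could pass the filter on low counts only through the acetate libraries, so the shares of the lowest group are a description. Across 5 groups by exon length the share of 2-fold rises stayed at 11.4% to 12.2%. Smaller changes did shift with length, from 30.6% called higher and 38.4% called lower in the shortest group to 44.1% and 30.7% in the longest, with medians of -0.04 and 0.078. The share at least 2-fold lower went from 3.43% to 1.05%.

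**Figure D2:**
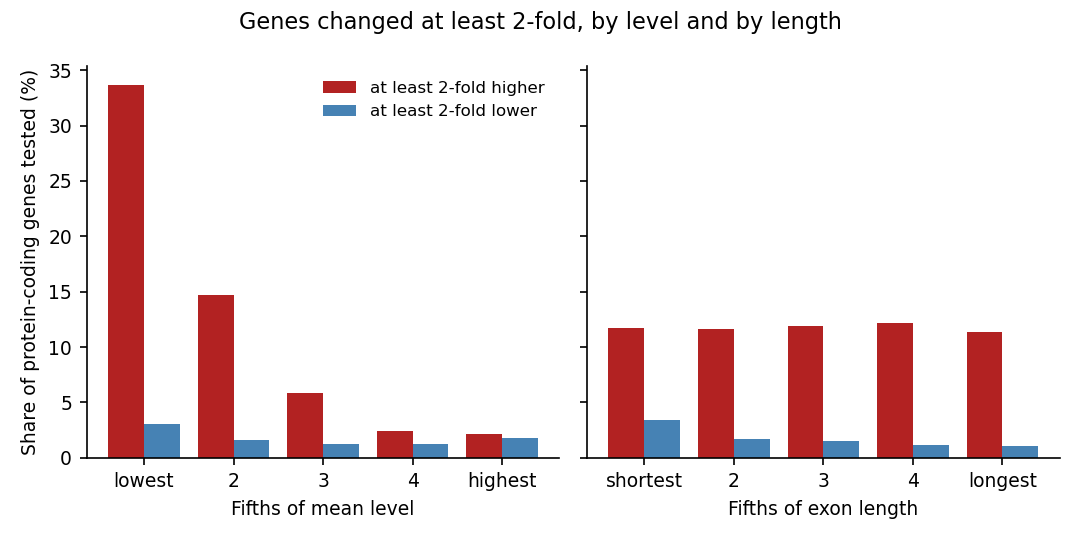
Share of tested protein-coding genes (percent, vertical axis) that were at least 2-fold higher (red) or lower (blue) with acetate, in 5 equal groups by mean level (left) and by exon length (right). The red share falls from 33.7% to 2.14% across level and stays between 11.4% and 12.2% across length, where the blue share falls from 3.43% to 1.05%. The lowest level group includes genes that could pass the filter on low counts only through the acetate libraries.

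Some genes were at or near 0 with TGF-β1 alone and measurable in all acetate libraries; such genes could pass the filter on low counts only through the acetate libraries, so their values are a description. FGFBP1, a secreted carrier of fibroblast growth factors, had no count in any TGF-β1 library and 1.08, 0.909, 1.46 and 0.819 CPM in S22 to S25. Its mean of 1.07 ± 0.285 CPM (SD, n = 4) was at least 12.6-fold higher than the largest floor of 3 counts in a TGF-β1 library. SPINT1, a membrane inhibitor of the serine proteases matriptase and HGF activator, stood at 0.0735, 0, 0.0390 and 0.0240 CPM with TGF-β1 and at 1.55, 1.79, 1.82 and 1.64 CPM with acetate. GCGR, the glucagon receptor, had 0 to 0.0565 CPM before and 1.30 to 2.36 CPM with acetate. All acetate libraries of the 3 genes lay above all TGF-β1 libraries. LGALS7, a keratinocyte galectin with a near-identical neighbouring copy, was also at 0 before, and its acetate libraries were uneven (0.333 to 1.34 CPM).

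The enzymes that activate acetate rose, its transporters moved both ways, and the enzyme that makes acetyl-CoA from citrate fell. ACSS2, the cytosolic and nuclear acetyl-CoA synthetase (chr20:34872146-34927962, plus strand), was at 11.5, 11.5, 11.7 and 14.04 CPM in S15 to S18 and at 30.6, 30.4, 33.1 and 30.8 CPM in S22 to S25. Every acetate library was more than 2 times as high as any TGF-β1 library. The test gave a log2 fold change 1.36 ± 0.06 (SE), adjusted p = 6.0e-11. The mitochondrial synthetase ACSS1 also rose, by 1.03 ± 0.09 on the log2 scale, from 4.01 ± 0.468 to 8.21 ± 0.594 CPM (mean ± SD, n = 4). ACSS3, a further mitochondrial family member, rose by 1.38 ± 0.29. ACLY, which makes the same acetyl-CoA from citrate, was lower in every acetate library, falling from 1821, 1887, 1798 and 1872 CPM to 1315, 1216, 1280 and 1308 CPM (log2 fold change -0.53 ± 0.03 (SE), adjusted p = 1.2e-09).

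Among the monocarboxylate transporters, SLC16A3 (MCT4, chr17:82228397-82261129, plus strand) was at 44.6, 51.8, 46.3 and 52.1 CPM with TGF-β1 and at 128, 119, 138 and 119 CPM with acetate (log2 fold change 1.37 ± 0.06 (SE), adjusted p = 1.7e-11). SLC16A7 (MCT2) rose by 1.53 ± 0.10. SLC16A1 (MCT1) fell by a small amount, 0.18 ± 0.03 on the log2 scale, yet its groups did not overlap, and the call was lost with library totals (adjusted p = 0.28). PDK4, a kinase that shuts pyruvate dehydrogenase and so limits acetyl-CoA from pyruvate (chr7:95583499-95596491, minus strand), stood at 0.637, 0.593, 0.820 and 0.647 CPM and then at 11.2, 12.2, 14.4 and 10.1 CPM. That change, 4.12 ± 0.14, was the largest in its list. Over the list of 30 genes of acetate transport, sensing and acetyl-CoA supply, 17 rose and 6 fell, with a median of 0.15. The fatty acid receptors FFAR2 and FFAR3 were not in the table.

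Genes that write, erase and read acetyl marks had small median changes. Of 15 histone acetyltransferases 2 rose and 9 fell (median -0.24), KAT6B by 0.78, KAT5 by 0.52 and KAT2A by 0.45, while EP300, at 0.15 ± 0.08, did not pass the test. It did pass, as a rise, without S15 (adjusted p = 0.047) or without S24 (adjusted p = 0.0026), and with library totals (adjusted p = 0.0077). Of 18 deacetylases and sirtuins 8 rose and 6 fell (median 0.11). HDAC9 rose by 1.29 ± 0.20 and HDAC5 by 0.71 ± 0.05, and SIRT1 fell by 0.66 ± 0.05. Of 16 readers with a bromodomain, the fold that binds acetyl-lysine, 2 rose and 11 fell (median -0.32). ATAD2 went from 149 ± 3.99 to 96.9 ± 1.41 CPM and BRD2 from 148 ± 1.79 to 107 ± 2.22 CPM. CECR2 was the exception by size, a rise of 2.62 ± 0.29 from a low 0.214 ± 0.0846 CPM.

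**Figure D3:**
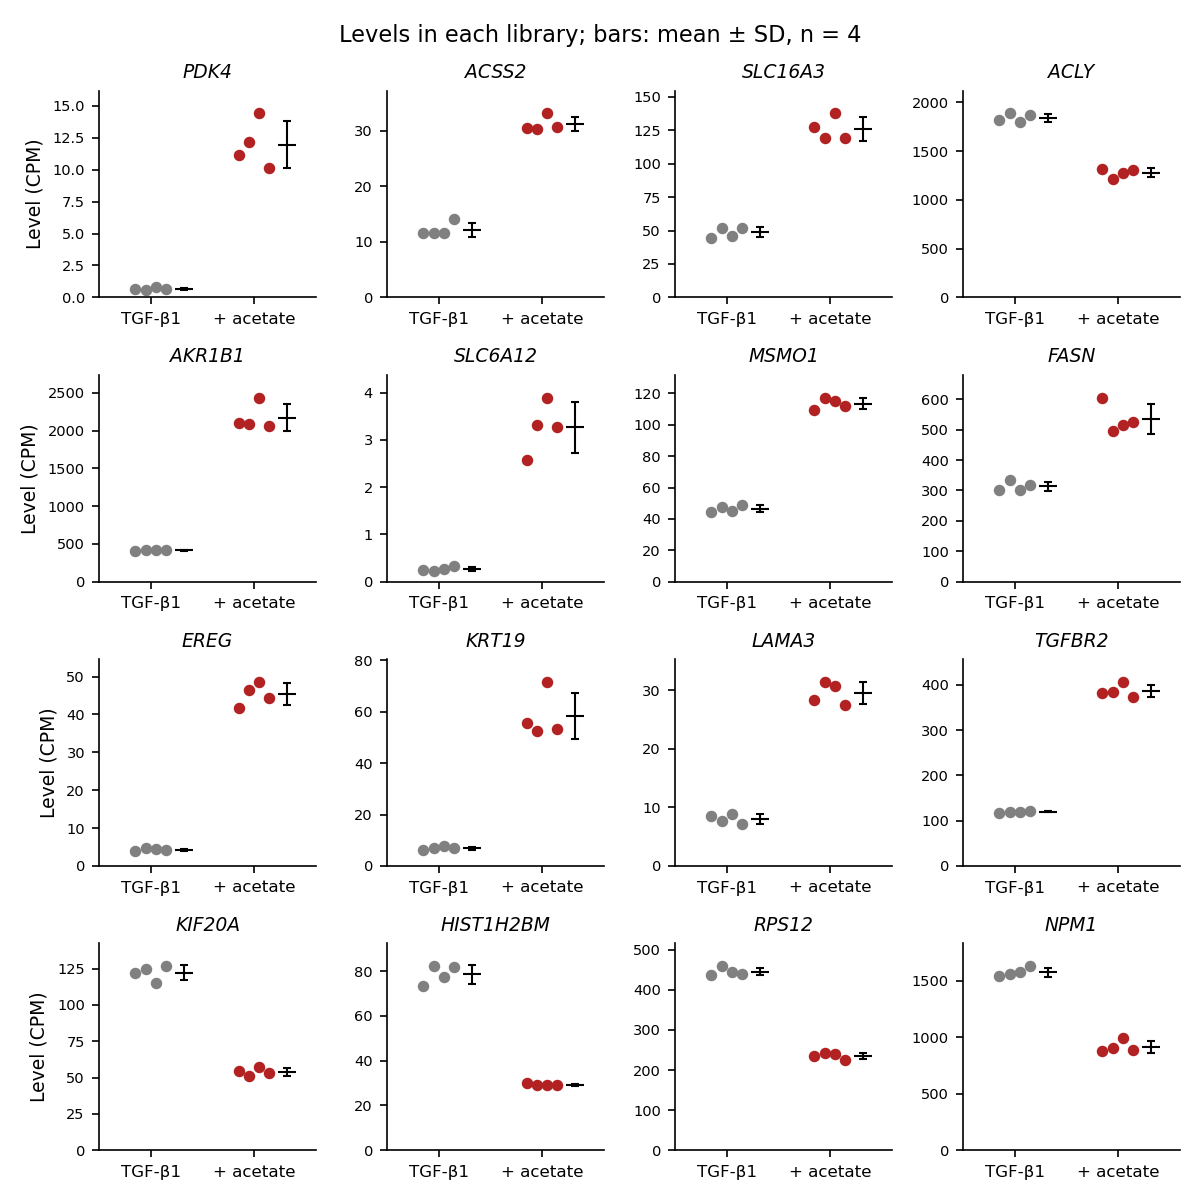
Level in CPM (vertical axes, from 0) of 16 genes in each of the 4 TGF-β1 libraries (grey) and the 4 libraries with acetate added (red), with mean ± SD beside the points. In every panel the 2 groups are apart; ACLY, KIF20A, HIST1H2BM, RPS12 and NPM1 are lower with acetate and the other 11 are higher.

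Sterol and fatty acid genes rose broadly. Of 28 genes of cholesterol synthesis and uptake 24 rose and 1 fell, with a median of 0.50. MSMO1, a sterol demethylase (chr4:165327623-165343160, plus strand), was at 44.4, 47.8, 44.9 and 48.8 CPM with TGF-β1 and at 109, 117, 115 and 112 CPM with acetate (log2 fold change 1.29 ± 0.04 (SE), adjusted p = 7.0e-13). All acetate libraries were more than 2 times as high as any TGF-β1 library. TM7SF2, a sterol reductase, rose by 1.85 ± 0.08, and INSIG1, the endoplasmic reticulum brake on this pathway, by 0.85 ± 0.04. The list's fall was NPC2, which moves cholesterol out of the lysosome (-0.35 ± 0.04).

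Fatty acid synthesis and desaturation had 23 rises and 3 falls among 30 genes (median 0.51). FASN, fatty acid synthase, was at 302, 334, 301 and 319 CPM and then at 605, 494, 515 and 524 CPM (log2 fold change 0.77 ± 0.05 (SE), adjusted p = 6.6e-09). Several chain-elongating enzymes rose more, ELOVL7 by 1.32 ± 0.05 and ELOVL2 by 1.20 ± 0.05, whereas ACACA, the rate-setting carboxylase, gained 0.14 ± 0.05 with groups that overlapped. The ACACA call was lost without S16, S18 or S23 (adjusted p = 0.13, 0.082 and 0.052). GPAM, the first enzyme of glycerolipid assembly, fell by 0.80 ± 0.04. In a joint list of fatty acid oxidation, ketogenesis and targets of the PPAR nuclear receptors, 25 of 36 genes rose, with 6 falls and a median of 0.29. CPT1A, the gate for fatty acids into mitochondria, went from 20.03, 21.2, 20.9 and 18 CPM to 68.3, 68.1, 66.7 and 67.3 CPM (log2 fold change 1.75 ± 0.05 (SE), adjusted p = 1.7e-13). PPARA, the nuclear receptor for this programme, rose by 1.30 ± 0.07. Its known target PDK4 rose and another, ANGPTL4, fell by 2.47. Of 22 genes of lipid efflux and lipoproteins 17 rose and 3 fell (median 0.49). These included the transporters ABCA7 (1.76 ± 0.06) and ABCA3 (1.05 ± 0.04), while the sterol-sensing receptor NR1H3 fell by 0.59.

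Genes of glucose use moved both ways. SLC2A3, a high-affinity glucose transporter, was at 83.4, 84.4, 83.7 and 82.1 CPM with TGF-β1 and at 297, 303, 310 and 291 CPM with acetate (log2 fold change 1.85 ± 0.03 (SE), adjusted p = 4.4e-15). HK1 rose by 1.02 ± 0.04 and ENO2 by 1.38 ± 0.05. GAPDH fell by 0.63 ± 0.03 and LDHA by 0.54 ± 0.03. In all, 14 of 28 glycolysis and lactate genes rose and 12 fell. The tricarboxylic acid cycle list, with 9 rises and 10 falls among 32, was near the shares over all genes, and with library totals it had 20 and 7. Nuclear subunits of oxidative phosphorylation leaned lower, with 4 rises and 40 falls among 66 and a median of only -0.17. With library totals the counts of that list became 13 and 26 and its median -0.04. In the highest level group of protein-coding genes 52.9% were called lower, with a median of -0.118. The list was not matched for level.

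Genes that cells use to balance water and salt rose. AKR1B1, aldose reductase, which makes the osmolyte sorbitol (chr7:134442350-134459284, minus strand), was at 412, 419, 416 and 425 CPM with TGF-β1 and at 2100, 2091, 2436 and 2060 CPM with acetate (log2 fold change 2.38 ± 0.05 (SE), adjusted p = 6.7e-15). It was among the 10 most abundant genes with a 2-fold rise. SLC6A12, the betaine carrier (chr12:190077-214570, minus strand), went from 0.245, 0.226, 0.273 and 0.336 CPM to 2.58, 3.32, 3.89 and 3.28 CPM (log2 fold change 3.58 ± 0.20 (SE), adjusted p = 3.2e-10). The water channel AQP1 rose from 2.06 ± 0.242 to 10.5 ± 0.875 CPM, and the taurine carrier SLC6A6 from 67.7 ± 1.25 to 121 ± 4.04 CPM. NFAT5, the transcription factor of the osmotic response, rose by 0.72 ± 0.10, with one acetate library, S24, at 61.6 CPM and the others at 87.7 to 91.4 CPM. The inositol carrier SLC5A3, another target of NFAT5, stood at 0.10 ± 0.05 and did not pass, though it did without S15 (adjusted p = 0.019) and with library totals (adjusted p = 0.00092). The whole list had 16 rises and 3 falls among 22 (median 0.36).

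Of 38 genes of sodium, bicarbonate and proton transport, 28 rose and 7 fell, with a median of 0.71. SLC9A7, a sodium-proton exchanger of internal membranes, was at 76.1, 74.2, 78.2 and 75.1 CPM and then at 154, 150, 145 and 147 CPM (log2 fold change 0.97 ± 0.03 (SE), adjusted p = 2.7e-12). CA12, a carbonic anhydrase on the cell surface, rose by 0.77 ± 0.03. ATP1B1, a sodium pump subunit, rose by 0.97 ± 0.04, and SCNN1A, a subunit of the epithelial sodium channel, by 0.94 ± 0.16. NEDD4L, the ligase that removes that channel, rose by 1.004 ± 0.04 and SGK1, the kinase that restrains the ligase, fell by 0.46 ± 0.04. SLC4A4, a sodium bicarbonate carrier, fell by 0.91 ± 0.05.

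**Figure D4:**
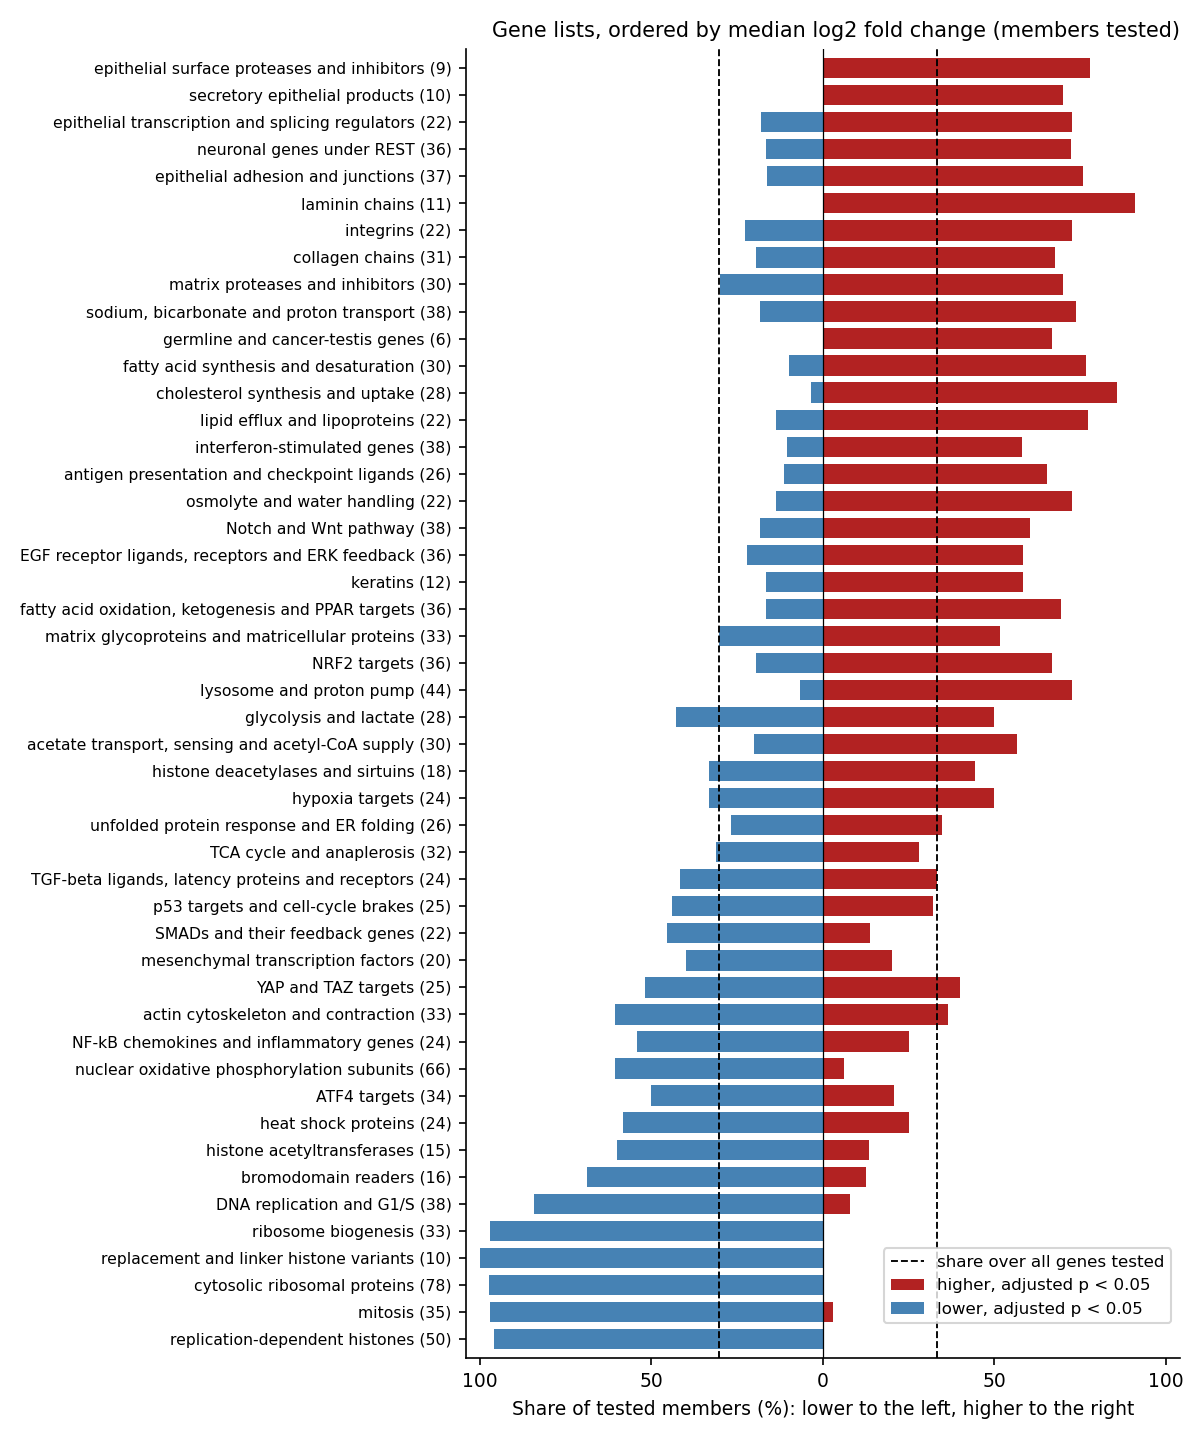
Share of the tested members of each of 48 gene lists that were higher (red, to the right) or lower (blue, to the left) with acetate at an adjusted p below 0.05, in percent, ordered by the list's median log2 fold change; the number tested is in brackets and dashed lines mark 33.3% higher and 30.4% lower over all genes. Lists of histones, mitosis, ribosomal proteins and ribosome biogenesis are nearly all blue, and the epithelial, laminin and cholesterol lists are mostly red.

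Epithelial genes rose well beyond CDH1, which encodes E-cadherin. Of 37 adhesion and junction genes 28 rose and 6 fell (median 0.87), and 18 rose at least 2-fold. The tight junction proteins CLDN2 and OCLN rose by 1.64 ± 0.05 and 1.66 ± 0.05, and PERP, a desmosome protein, by 1.25 ± 0.04. Of the catenins, the partners of E-cadherin inside the cell, some went the other way: CTNNB1, β-catenin, was at 703, 696, 716 and 703 CPM with TGF-β1 and at 457, 458, 464 and 468 CPM with acetate (log2 fold change -0.61 ± 0.03 (SE), adjusted p = 5.9e-11), and CTNND1 fell by 0.23. KRT19, a keratin of simple epithelia (chr17:41523617-41528308, minus strand), went from 6.17, 6.89, 7.67 and 7.02 CPM to 55.8, 52.3, 71.6 and 53.3 CPM (log2 fold change 3.06 ± 0.10 (SE), adjusted p = 9.4e-13). The abundant keratins KRT18 and KRT7 rose by 0.35 ± 0.04 and 0.25 ± 0.04, and KRT81 fell by 0.28.

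Regulators of epithelial identity did not all follow. Of 22 epithelial transcription and splicing regulators 16 rose and 4 fell (median 1.12). KLF5 was at 22.4, 20.5, 21.6 and 20.6 CPM and then at 58.9, 62.5, 62.2 and 62.03 CPM (log2 fold change 1.53 ± 0.04 (SE), adjusted p = 1.7e-13), and the ETS family members ELF3 and EHF rose by 1.52 ± 0.08 and 2.18 ± 0.12. HNF4A, a nuclear receptor of endodermal epithelium, fell from 215, 224, 196 and 214 CPM to 121, 106, 103 and 116 CPM (log2 fold change -0.93 ± 0.05 (SE), adjusted p = 4.0e-10). FOXA1 and OVOL2 fell as well, by 0.67 and 0.48. The surface protease inhibitor SPINT2 rose from 82.1 ± 5.65 to 327 ± 22.2 CPM. Of the 20 genes on its list 9 were tested, and 7 rose with none lower. Of 30 secretory products 10 were tested and 7 rose, the membrane mucin MUC13 by 1.72 ± 0.12. Members near 0 with TGF-β1 could pass the filter on low counts only through the acetate libraries, so the counts of both lists are a description. CEACAM6 rose by 2.74 ± 0.28, but its reads may be shared with its near copies.

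Mesenchymal genes did not fall as a block. Of 20 mesenchymal transcription factors 4 rose and 8 fell (median -0.14). SNAI1, a repressor of CDH1, fell from 22.2, 24.6, 20.5 and 21.5 CPM to 9.73, 8.75, 8.36 and 8.81 CPM (log2 fold change -1.32 ± 0.07 (SE), adjusted p = 1.6e-10), TCF4 fell by 0.61, and HMGA2 rose by 1.21 ± 0.05 and ZEB2 by 0.74 ± 0.08. VIM, vimentin, fell by 0.41 ± 0.03, and FN1, fibronectin, did not pass at -0.06 ± 0.04. Of 33 actin and contraction genes 12 rose and 20 fell. TAGLN fell by 1.34 ± 0.05 and TPM2 by 0.92 ± 0.04, while other muscle genes rose. FLNC, a muscle filamin, was at 3.23, 3.25, 3.16 and 3.62 CPM and then at 41.8, 31.2, 32.3 and 36.2 CPM (log2 fold change 3.41 ± 0.10 (SE), adjusted p = 2.3e-13). CNN1 rose by 2.78 ± 0.15.

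Laminin chains rose together, and other matrix genes moved both ways. Of 11 laminin chains 10 rose and none (0) fell in edgeR's test (median 0.81). LAMA3, a chain of the laminin that anchors epithelia (chr18:23689443-23955066, plus strand), was at 8.57, 7.63, 8.86 and 7.12 CPM with TGF-β1 and at 28.4, 31.4, 30.7 and 27.5 CPM with acetate (log2 fold change 1.87 ± 0.07 (SE), adjusted p = 5.8e-12). Its partner LAMB3 rose by 1.79 ± 0.05, and ITGA6 and ITGB4, the integrin pair that binds it, by 1.29 ± 0.04 and 1.51 ± 0.04. ITGB6, whose integrin releases latent TGF-β, went the other way, from 73.9, 69.8, 68.4 and 70.8 CPM to 21.9, 21.3, 20.7 and 24.6 CPM (log2 fold change -1.68 ± 0.05 (SE), adjusted p = 4.6e-13). The laminin linkers NID2 and NID1 rose by 2.76 ± 0.06 and 1.09 ± 0.03, SPARC by 2.69 ± 0.04, and the collagen VI chains COL6A1 and COL6A2 by 1.79 ± 0.06 and 2.08 ± 0.06. COL4A1, the main collagen of basement membranes, fell by 0.71 ± 0.04, while COL4A5 and COL4A6 rose by 0.94 ± 0.03 and 1.14 ± 0.04. Matrix proteases and their inhibitors had 21 rises and 9 falls among 30. MMP10 rose by 2.04 ± 0.09, TIMP1 by 1.17 ± 0.05, and MMP2 fell by 0.25.

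Components of TGF-β signalling moved in both directions. TGFBR2, the receptor that binds the ligand first (chr3:30606502-30694142, plus strand), was at 118, 119, 119 and 121 CPM with TGF-β1 and at 383, 383, 406 and 374 CPM with acetate (log2 fold change 1.70 ± 0.03 (SE), adjusted p = 7.9e-15). The co-receptor TGFBR3 rose by 2.43 ± 0.09 and the latency protein LTBP1 by 1.504 ± 0.04. INHBA, a subunit of activin, fell from 7.05, 5.87, 6.95 and 6.81 CPM to 1.52, 1.01, 1.06 and 1.32 CPM (log2 fold change -2.44 ± 0.13 (SE), adjusted p = 1.6e-10), and TGFB2 fell by 0.40 ± 0.03. BMP2 rose by 1.45 ± 0.06, while ID1, a target of the BMP branch, fell by 1.06 ± 0.05. In the whole list of ligands, latency proteins and receptors 8 of 24 rose and 10 fell (median -0.02), against 10 and 7 with library totals. The share that rose is that over all genes. Of 22 SMADs and their feedback genes 3 rose and 10 fell (median -0.10), against 7 and 9 with library totals.

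Growth factor signalling through the EGF receptor family showed rises in ligands, receptor and feedback genes. EREG, epiregulin (chr4:74365143-74388751, plus strand), was at 4.02, 4.63, 4.43 and 4.10 CPM with TGF-β1 and at 41.8, 46.5, 48.6 and 44.5 CPM with acetate (log2 fold change 3.40 ± 0.07 (SE), adjusted p = 5.7e-15). AREG, amphiregulin, and ERBB3, a partner receptor, rose by 3.81 ± 0.17 and 3.21 ± 0.15. The ERK feedback genes DUSP4, SPRED3 and ETV1 rose by 1.33 ± 0.04, 2.32 ± 0.08 and 1.14 ± 0.05. The immediate early genes DUSP1, MYC and JUNB fell by 0.81, 0.55 and 0.44. Over this list 21 of 36 rose and 8 fell (median 0.32).

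Wnt and Notch genes had 23 rises and 7 falls among 38 (median 0.35). AXIN2, a feedback target of β-catenin, was at 13.3, 12.7, 12.1 and 11.98 CPM and then at 40.02, 38.7, 39.02 and 36.95 CPM (log2 fold change 1.63 ± 0.05 (SE), adjusted p = 5.1e-13). NKD1, an inhibitor of Wnt signals, rose by 2.47 ± 0.08 and DKK3 by 2.03 ± 0.04. NOTCH3 rose by 2.60 ± 0.09, whereas the ligand JAG1 fell by 1.02 ± 0.04 and HES1, a Notch target, by 1.02 ± 0.06.

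Genes of cell division fell together. Of 35 mitosis genes 34 fell and 1 rose (median -0.67). The riser, CDC25B, a phosphatase that starts mitosis, changed by only 0.13 ± 0.04, and its adjusted p was 0.093 with DESeq2 and 0.12, 0.1, 0.057 and 0.054 without S15, S17, S18 or S22. KIF20A, a kinesin of cytokinesis (chr5:138178719-138187715, plus strand), was at 122, 125, 115 and 127 CPM with TGF-β1 and at 54.5, 50.9, 57.5 and 53.4 CPM with acetate (log2 fold change -1.17 ± 0.04 (SE), adjusted p = 4.1e-12). CCNB2, a B-type cyclin (chr15:59105078-59125045, plus strand), went from 123, 124, 125 and 129 CPM to 61.97, 63.4, 62.4 and 62.3 CPM (log2 fold change -1.002 ± 0.03 (SE), adjusted p = 1.0e-12). The acetate libraries of CCNB2 stood close together and far below all TGF-β1 libraries. Of 38 genes of DNA replication and entry into S phase 32 fell and 3 rose (median -0.50). RRM2, a subunit of ribonucleotide reductase, fell by 1.18 ± 0.04 and the helicase subunit MCM7 by 0.84 ± 0.04. CCND2, a D-type cyclin, rose by 3.61 ± 0.23 from a low 0.186 ± 0.0474 CPM. The inhibitors of cyclin-dependent kinases split: CDKN1A and CDKN1C rose by 0.95 ± 0.04 and 2.27 ± 0.19, and CDKN2C fell from 48.1, 50.95, 50.5 and 47.6 CPM to 16.9, 16.9, 16.4 and 15.7 CPM (log2 fold change -1.58 ± 0.04 (SE), adjusted p = 2.1e-13).

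Many of the mitosis genes have the same short motifs upstream of their starts. Many late cell cycle promoters are known to hold CCAAT boxes, bound by NF-Y, and a CHR element, of which TTTGAA is the common form. In the 250 bases before the start, 23 of the 29 mitosis genes with a RefSeq promoter entry (79.3%) held CCAAT on either strand, against 34.5% of 11045 tested protein-coding genes. TTTGAA on either strand was in 16 of the 29 (55.2%), against 8.55%, and both motifs were in 48.3%, against 3.42%. CCAAT was also common in a list that mostly rose, since 72.7% of 22 cholesterol genes with an entry held it. TTTGAA was in 4.55% of those. Other lists that mostly fell did not share the TTTGAA excess. It was in 3.23% of 31 DNA replication genes and 9.68% of 62 cytosolic ribosomal protein genes with an entry. CCAAT was in 51.6% and 30.6% of these lists. Among 163 genes at least 2-fold lower 59 held CCAAT (36.2%) and 18 TTTGAA. Among 1224 at least 2-fold higher 399 held CCAAT (32.6%) and 103 TTTGAA. Both CCAAT shares were near the 34.5% over all tested protein-coding genes with an entry. A link of either motif to the direction of change was not tested. The 4 sequences below are the 250 bases before the start (GRCh38.p14, all on the plus strand), with each match to CCAAT or to the letters TTTGAA, on either strand, in capitals. They are shown because 3 belong to mitosis genes that fell and the fourth to a sterol gene that rose. RefSeq starts differ from the gene starts given above, which came with the deposited counts, so a window can overlap the gene as placed there. The windows are CCNB2 at chr15:59104896-59105145, PLK1 at chr16:23678639-23678888, KIF20A at chr5:138178862-138179111 and MSMO1 at chr4:165327419-165327668.
CCNB2: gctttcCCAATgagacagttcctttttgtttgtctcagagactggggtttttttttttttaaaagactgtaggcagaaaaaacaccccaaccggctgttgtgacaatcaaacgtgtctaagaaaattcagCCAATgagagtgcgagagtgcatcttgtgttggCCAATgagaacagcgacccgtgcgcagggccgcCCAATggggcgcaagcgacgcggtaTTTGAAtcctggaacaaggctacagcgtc
PLK1: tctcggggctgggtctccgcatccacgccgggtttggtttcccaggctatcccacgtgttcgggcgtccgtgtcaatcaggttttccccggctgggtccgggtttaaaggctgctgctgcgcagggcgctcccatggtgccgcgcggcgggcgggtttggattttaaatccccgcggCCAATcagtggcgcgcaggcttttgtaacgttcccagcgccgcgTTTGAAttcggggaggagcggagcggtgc
KIF20A: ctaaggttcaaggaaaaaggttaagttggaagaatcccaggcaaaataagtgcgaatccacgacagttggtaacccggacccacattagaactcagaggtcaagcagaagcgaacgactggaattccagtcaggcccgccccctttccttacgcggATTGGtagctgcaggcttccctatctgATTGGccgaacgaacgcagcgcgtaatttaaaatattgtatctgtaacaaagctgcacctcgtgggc
MSMO1: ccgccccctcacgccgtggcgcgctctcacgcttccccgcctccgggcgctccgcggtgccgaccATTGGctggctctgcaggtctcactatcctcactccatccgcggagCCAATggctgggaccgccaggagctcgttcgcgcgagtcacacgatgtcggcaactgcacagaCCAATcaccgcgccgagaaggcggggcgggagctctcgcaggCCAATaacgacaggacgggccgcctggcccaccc
CCNB2 has 4 CCAAT boxes and PLK1 has 1, and in both TTTGAA ends 24 bases before the start. KIF20A has 2 CCAAT boxes on the reverse strand and no TTTGAA in this window. MSMO1, which rose by 1.29, has 4 CCAAT boxes and no TTTGAA. PLK1, a mitotic kinase, fell by 0.90 ± 0.05. A match of letters is a description and not evidence of binding.

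Histone genes had the lowest median of the lists examined. Of 50 replication-dependent histone genes 48 fell and none (0) rose in edgeR's test, with a median of -1.08 and 34 at least 2-fold lower. HIST1H2BM (chr6:27815044-27815424, plus strand) was at 73.2, 82.2, 77.2 and 81.9 CPM with TGF-β1 and at 30.01, 28.9, 28.99 and 29.1 CPM with acetate (log2 fold change -1.43 ± 0.04 (SE), adjusted p = 4.6e-13). HIST1H2BC and HIST1H1B fell by 1.39 and 1.19. The fall held for the histones made outside S phase as well, 10 of 10, with H3F3A lower by 0.89 ± 0.04 and H1F0 by 0.47 ± 0.05. Histone genes have near-identical copies, so the division of reads among them is uncertain, though they moved the same way. HIST1H2BH had the largest fitted fall of the list but varied 10-fold among TGF-β1 libraries, at 2.11, 21.04, 9.41 and 21.9 CPM, against 0.249, 0.182, 0.496 and 0.182 CPM with acetate.

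The machinery of protein synthesis was lower. Of 78 cytosolic ribosomal protein genes 76 fell and none (0) rose in edgeR's test, with a median of -0.55. RPS12 (chr6:132814441-132817564, plus strand) was at 438, 459, 444 and 441 CPM with TGF-β1 and at 235, 242, 241 and 226 CPM with acetate (log2 fold change -0.92 ± 0.03 (SE), adjusted p = 3.8e-12). RPS4X fell by 0.76 ± 0.03. The members that did not pass were RPS26 (-0.39 ± 0.20) and RPS29 (-0.09 ± 0.42), named here after their values were seen. RPS26 passed without S15 (adjusted p = 0.025) or S25 (adjusted p = 0.035). Of 33 genes of ribosome biogenesis 32 fell (median -0.54). NPM1, nucleophosmin, went from 1538, 1559, 1578 and 1629 CPM to 875, 904, 996 and 887 CPM (log2 fold change -0.78 ± 0.04 (SE), adjusted p = 1.3e-10), and UBTF, a factor for ribosomal RNA transcription, fell by 0.97 ± 0.04. With library totals in place of TMM factors the medians of both lists were -0.42 and -0.41 and 76 and 31 members fell.

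Heat shock and amino acid stress genes had more falls than rises, by a margin that depended on scaling. Of 24 heat shock genes 6 rose and 14 fell (median -0.22), HSP90AB1 by 0.67 ± 0.03 and HSPD1 by 0.61 ± 0.03, while the small heat shock protein HSPB8 rose by 0.86 ± 0.05. Of 34 targets of ATF4, the transcription factor of amino acid shortage, 7 rose and 17 fell (median -0.18). The amino acid exchanger subunits SLC7A5 and SLC3A2 fell by 0.89 and 0.78 and MTHFD2 by 0.98. STC2 rose by 1.59 ± 0.17. Genes of the unfolded protein response had 9 rises and 7 falls among 26, near the shares over all genes. NRF2 targets, the antioxidant genes that A549 cells express highly, had 24 rises and 7 falls among 36 (median 0.25). AKR1C1 and ABCC2 rose by 1.86 ± 0.07 and 1.49 ± 0.05; ALDH1A1 was at 13551, 13654, 13401 and 13991 CPM with TGF-β1 and fell to 6615, 6700, 6717 and 6838 CPM. FTL, a ferritin chain, fell by 1.05 ± 0.04. AKR1C1 has close copies, so its reads may be shared.

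Lysosomal genes rose by small amounts and interferon and antigen presentation genes by larger ones. Of 44 genes of the lysosome and its proton pump 32 rose and 3 fell, with a small median of 0.20. MITF, a transcription factor that can drive lysosomal genes (chr3:69739435-69968337, plus strand), was at 8.79, 8.28, 7.75 and 7.93 CPM with TGF-β1 and at 38.1, 37.6, 40.9 and 37.8 CPM with acetate (log2 fold change 2.24 ± 0.05 (SE), adjusted p = 5.2e-14). The protease CTSB rose by 1.04 ± 0.05, and TFEB, a relative of MITF, fell by 0.92 ± 0.09. Of 38 interferon-stimulated genes 22 rose and 4 fell (median 0.47). GBP2, a GTPase of cell defence, went from 1.32, 1.04, 1.11 and 0.911 CPM to 11.4, 10.8, 11.9 and 10.6 CPM (log2 fold change 3.34 ± 0.10 (SE), adjusted p = 6.4e-13). IFIT1 rose by 2.93 ± 0.13 and IFI6 by 1.85 ± 0.11, while IRF7 fell by 0.45. Genes of antigen presentation and checkpoint ligands had 17 rises and 3 falls among 26. HLA-B rose by 1.34 ± 0.06, and CD274, which encodes PD-L1, by 1.002 ± 0.11 from 2.42 ± 0.291 to 4.86 ± 0.357 CPM. NF-κB target and inflammatory genes had 6 rises and 13 falls among 24, but 10 and 9 with library totals. IL6 fell by 1.95 ± 0.11 and CXCL1 fell by 1.70 ± 0.07, while PTGS2, cyclooxygenase 2, rose by 2.08 ± 0.09.

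Most tested genes of a list normally silenced outside neurons by the repressor REST rose. Of the 48 listed 36 were tested, and 26 rose and 6 fell (median 0.95). Members near 0 with TGF-β1 could pass the filter on low counts only through the acetate libraries, so the count is a description. Among the protein-coding genes lowest in level, 53.2% were called higher. REST itself, at -0.08 ± 0.04, did not pass (adjusted p = 0.092). It passed as a fall with DESeq2 (adjusted p = 0.015) and without S16 (adjusted p = 0.03) or S18 (adjusted p = 0.044). INA, an intermediate filament of neurons (chr10:103277163-103290351, plus strand), was at 6.22, 6.89, 6.68 and 6.42 CPM with TGF-β1 and at 43.1, 41.4, 40.9 and 39.7 CPM with acetate (log2 fold change 2.65 ± 0.05 (SE), adjusted p = 6.3e-15). L1CAM, a neural adhesion molecule, rose by 2.42 ± 0.06 and SYT1, a vesicle calcium sensor, by 1.22 ± 0.04. SCG2, a granule protein, fell by 2.13 ± 0.08, and the abundant NPTX1 by 1.12 ± 0.05.

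Several programmes of stress and density sensing split between rises and falls. Of 24 hypoxia targets 12 rose and 8 fell, with MXI1 higher by 1.34 ± 0.06 and VEGFA, the vascular growth factor, lower by 0.49 ± 0.04. Of 25 p53 targets and cell cycle brakes 8 rose and 11 fell, against 11 and 9 with library totals; TP53I3 fell by 1.06 ± 0.04. Of 25 targets and partners of YAP and TAZ, the effectors of the Hippo pathway, 10 rose and 13 fell, against 11 and 11 with library totals. WWTR1, which encodes TAZ itself, was at 91.2, 94.6, 95.4 and 90.4 CPM with TGF-β1 and at 179, 178, 181 and 177 CPM with acetate (log2 fold change 0.95 ± 0.03 (SE), adjusted p = 2.0e-12). The receptor AXL rose by 0.77 ± 0.04, while TEAD4, a DNA-binding partner of TAZ, fell by 1.03 ± 0.06.

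Long noncoding RNA genes showed the same excess of 2-fold rises. Of 1936 long noncoding RNA genes, antisense genes left out, 250 (12.9%) were at least 2-fold higher and 49 (2.53%) at least 2-fold lower. Of 2715 antisense genes 8.91% were at least 2-fold higher and 1.62% lower. The shares over all tested genes were 10.8% and 2.07%. NEAT1, the RNA core of nuclear paraspeckles (chr11:65422774-65445540, plus strand), was at 400, 246, 277 and 214 CPM with TGF-β1 and at 1029, 1322, 917 and 1178 CPM with acetate (log2 fold change 1.97 ± 0.15 (SE), adjusted p = 1.7e-08). MALAT1, its neighbour and one of the most abundant RNAs, rose by 1.46 ± 0.09. In neither RNA did the groups overlap. MIR17HG, the host of a cluster of growth-promoting microRNAs, fell by 1.30 ± 0.06, and DANCR by 1.06 ± 0.05. Small RNA genes, which ribosome-depleted total RNA retains in part, were counted together with gene types not assigned elsewhere. This mixed class leaned lower, with 4.13% at least 2-fold higher and 6.74% at least 2-fold lower.

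Levels in control cells place these changes, as values only, since the comparison of TGF-β1 with control shares its TGF-β1 libraries. The levels come from all 12 libraries on a joint scale, and each is a mean ± SD (n = 4). Some genes stood lower with TGF-β1 than in control cells and were part of the way back with acetate. EREG was at 275 ± 6.43 CPM in control cells, 4.34 ± 0.298 with TGF-β1 and 45.5 ± 2.87 with TGF-β1 and acetate, and PDK4 at 38.2 ± 0.492 CPM in control cells, 0.681 ± 0.102 with TGF-β1 and 12 ± 1.80 with TGF-β1 and acetate. Their acetate libraries all stayed below the control libraries. The same held for the taurine carrier SLC6A6, at 131 ± 3.35 CPM in control cells, 68.4 ± 0.991 with TGF-β1 and 121 ± 4.00 with TGF-β1 and acetate. Other genes stood above control: TGFBR2 was at 283 ± 8.15 CPM in control cells, 120 ± 2.09 with TGF-β1 and 388 ± 13.2 with TGF-β1 and acetate, and AKR1B1 at 1104 ± 55.8 CPM in control cells, 422 ± 7.80 with TGF-β1 and 2177 ± 175 with TGF-β1 and acetate. In both, every acetate library was above every control library. THBS1, thrombospondin 1, was at 168 ± 7.80 CPM in control cells, 1917 ± 40.3 with TGF-β1 and 280 ± 32.9 with TGF-β1 and acetate, so that acetate left it above control.

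For further genes the acetate level lay outside anything seen in control or TGF-β1 cells. SPARC was at 6.64 ± 0.671 CPM in control cells, 30.1 ± 0.911 with TGF-β1 and 194 ± 5.84 with TGF-β1 and acetate, and NKD1 at 5.89 ± 0.259 CPM in control cells, 12.7 ± 1.04 with TGF-β1 and 70.05 ± 7.58 with TGF-β1 and acetate. In both, the acetate libraries were the highest of the 3 groups. SLC6A12 was at 0.312 ± 0.0846 CPM in control cells, 0.273 ± 0.0497 with TGF-β1 and 3.28 ± 0.539 with TGF-β1 and acetate, and MSMO1 at 32.6 ± 2.14 CPM in control cells, 46.9 ± 2.42 with TGF-β1 and 114 ± 3.38 with TGF-β1 and acetate. The falls differed among themselves. KIF20A was at 57.6 ± 6.58 CPM in control cells, 123 ± 5.39 with TGF-β1 and 54.2 ± 2.75 with TGF-β1 and acetate, and its control and acetate libraries overlapped. HIST1H2BM was at 98.9 ± 6.39 CPM in control cells, 79.4 ± 4.75 with TGF-β1 and 29.3 ± 0.523 with TGF-β1 and acetate, and RPS12 at 410 ± 3.76 CPM in control cells, 450 ± 10.4 with TGF-β1 and 236 ± 6.94 with TGF-β1 and acetate. In both genes acetate libraries were below the libraries of either other group.

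**Figure D5:**
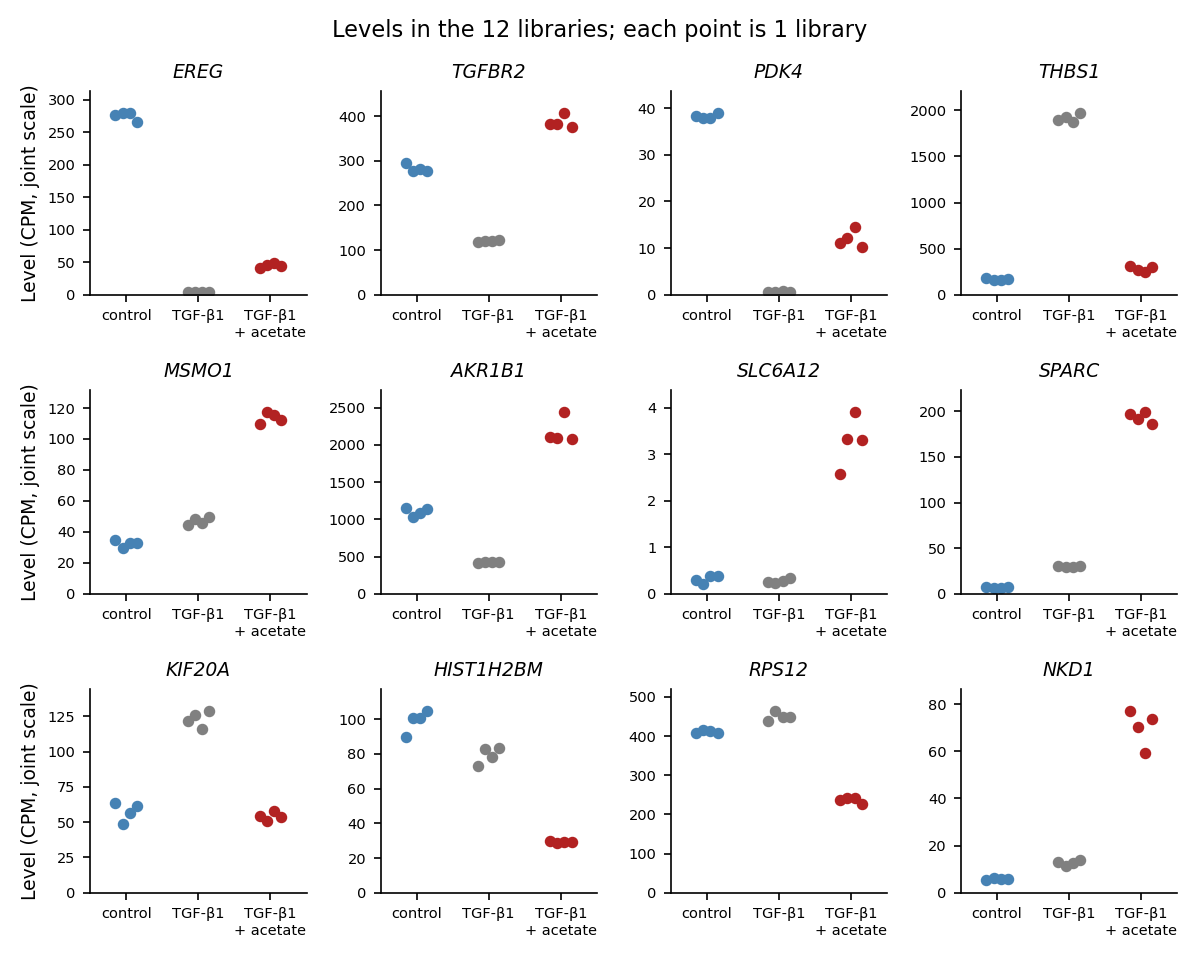
Level in CPM on a scale shared by all 12 libraries (vertical axes, from 0) of 12 genes in control (blue), TGF-β1 (grey) and TGF-β1 with acetate (red), 1 point per library. Acetate libraries of EREG, PDK4 and THBS1 lie between the other groups, and those of KIF20A overlap control. Those of TGFBR2, AKR1B1, MSMO1, SLC6A12, SPARC and NKD1 lie above both other groups, and those of HIST1H2BM and RPS12 below both.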

How the data were processed

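RNA of A549 cells was measured in 12 libraries, 8 of which enter the test. Per the labels' protocols, total RNA was depleted of ribosomal RNA, made into stranded libraries and read in pairs; the submitters' processing notes name bcl2fastq, HISAT2, limma and hg38. Neither a counting tool nor a strand setting is given in the sources used here, so reads of antisense, overlapping or near-identical genes cannot be apportioned with certainty. The deposited values used are the authors' raw counts per gene, which keep genes above 0.1 CPM in at least 4 libraries; 32 other columns of values per library were not used. Column codes match no sample label, and groups were placed by the table names. Genes passing filterByExpr (minimum count 10, minimum total 15) were scaled by TMM and tested with edgeR 4.0.16 in R 4.3.3 (glmQLFit, glmQLFTest, Benjamini-Hochberg, threshold 0.05). The alternatives were other scalings and filters, DESeq2 1.42.0, limma-voom 3.58.1, a test against 1.5-fold, a fit of all 12 libraries and leaving out each library. The scripts were tested on simulated counts. Joint levels of the 3 groups use TMM over all 12 libraries. Gene positions are those given with the deposited counts, and gene types and exon lengths come from GENCODE (hg38). Promoters come from RefSeq (GRCh38.p14); the histone genes had no entry. Mitochondrially encoded genes were not analysed here.

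The comparison and the gene lists were chosen with earlier results of these data known. Named genes were the largest, the most abundant and the near-zero changes and, in each list, those ranked highest among its calls in each direction, together with a fixed group of pathway genes. ACSS3, AREG, ERBB3, HIST1H2BH, PLK1, RPS26 and RPS29 were added after their values were seen.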

Additional observations from a re-analysis of the deposited data

Results flagged for a closer look

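In 17 of 392 groups of 4 libraries examined, 1 library stood apart from the other 3, its gap to the nearest being above Dixon's 95% critical value as a share of the group's range; chance alone flags about 1 in 20. Of these 17, 6 were in S24, an acetate library. S24 was high for ACSS2 (33.1 CPM against 30.4 to 30.8), AKR1B1 (2440 CPM against 2060 to 2100) and MITF (40.9 CPM against 37.6 to 38.1). It was low for FOXA1 (10.6 CPM against 11.2 to 11.3), MALAT1 (3670 CPM against 4710 to 4900) and NFAT5 (61.6 CPM against 87.7 to 91.4).

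S17, a TGF-β1 library, was high for 4 genes. STC2 stood at 10.2 CPM against 4.92 to 5.08 in the others, MTHFD2 at 146 CPM against 117 to 118, SCG2 at 16.8 CPM against 13.9 to 14.3 and RPS26 at 70.3 CPM against 33.7 to 38.5. S15 was high for CA12 (88.7 CPM against 88.0 to 88.1) and low for JUNB (220 CPM against 241 to 245) and KAT2A (52.6 CPM against 55.1 to 55.7). S18 was high for ACSS2 (14.0 CPM against 11.5 to 11.7). Among acetate libraries, S22 was low for KLF5 (58.9 CPM against 62.0 to 62.5), and S23 was low for KRT81 (571 CPM against 626 to 634) and TP53I3 (96.0 CPM against 105 to 106). In these genes the 2 groups did not overlap, with the exception of RPS26.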

How the results depend on the processing

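No gene of the 14229 called was called in the other direction under any alternative. Leaving out 1 library at a time gave 13523 to 14302 calls, 6825 to 7369 higher and 6459 to 7152 lower, and 2434 to 2607 genes at least 2-fold higher and 453 to 526 at least 2-fold lower. With library totals 298 genes were at least 2-fold lower. With a mean of at least 1 CPM 17451 genes were tested, and 1485 were at least 2-fold higher and 276 lower. A test against a 1.5-fold change, stricter by construction, called 3676 genes, 2769 higher and 907 lower. Higher genes were 49.9% of calls with DESeq2 size factors, 49.3% with DESeq2, 57.3% with upper-quartile factors and 67.1% with library totals. The median change of 5 of 50 lists, all small, took both signs over the scalings: TGF-β ligands and receptors, SMADs, the tricarboxylic acid cycle, the unfolded protein response and p53 targets. With library totals the balance of rises and falls turned or evened in 5 lists: TGF-β ligands and receptors, the tricarboxylic acid cycle, p53 targets, NF-κB target genes and YAP and TAZ targets. STC2 rose by 1.59, and by 1.93 without S17. No paired analysis was possible because the count columns carry no replicate numbers. At this depth, genes under the table's minimum of 0.1 CPM cannot be described.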

Other observations

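Genes of zinc-finger transcription factors differed by where they lie, in a split chosen after values were seen and with no test. On chromosome 19, which holds clusters of such genes, 108 of 205 tested rose (52.7%) and 36 fell (17.6%), and the median change was 0.22. On the other chromosomes 55 of 264 rose (20.8%) and 113 fell (42.8%), and the median was -0.11. Other protein-coding genes of chromosome 19 lay between these, with 386 of 911 higher (42.4%), 303 lower (33.3%) and a median of 0.07. The median level was 9.35 CPM for the zinc-finger genes of chromosome 19, 15.2 CPM for those elsewhere and 16.3 CPM for the other genes of chromosome 19, so the first set was also the lowest in level; the part of level in the difference was not tested. Clustered zinc-finger genes have similar sequences, and their reads may be shared.

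Of 33 genes with a meiotic or germline role, 8 were in the table and 6 were tested. Of those tested, 4 rose while none (0) fell in edgeR's test (median 0.59). Members near 0 with TGF-β1 could pass the filter on low counts only through the acetate libraries, so the count is a description. Among the protein-coding genes lowest in level, 53.2% were called higher. STAG3, a cohesin subunit of meiosis, stood at 5.38 CPM with TGF-β1 and at 14.3 CPM with acetate (means, n = 4), and TEX15, which is needed for meiotic recombination, at 0.34 CPM and at 2.12 CPM.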
